A study of Homo sapiens with 6 samples.

Results

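REG4 and 9 genes of the mucous secretory lineage were compared between HPSE-knockdown and control cells of SW480, an established cell line from a primary human colon cancer. The 10 genes were REG4, MUC5AC, MUC5B, MUC2, TFF1, TFF2, TFF3, AGR2, SPDEF and ATOH1, taken by symbol from the 59192 features of the deposited table, and each had a row under its own Ensembl identifier. They are products of goblet cells and of gastric-type mucous cells, the folding enzyme of mucins and regulators of the lineage. REG4 and MUC5AC were selected on their fold change between the 2 lines in these same libraries, so their difference is given as a description. Whether they were called is stated below, but nothing is read from it. The other 8 genes were named for their roles, with earlier results of these data known.

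SW480-NC cells carry Cas9 and a control guide RNA, and SW480-45 is the label of the line with Cas9 and a guide RNA against HPSE, the gene of heparanase. Both lines were made by lentiviral infection of SW480 cells that already expressed Cas9 stably, and 3 libraries per line came from independent experiments. The study calls its sequenced knockdown line SW480-KD1, and SW480-45 was taken to be this line, since no other sequenced knockdown line is named. Only 1 guide was sequenced, and they do not say whether the line is a clone, so that loss of HPSE and a difference between the lines for another reason cannot be told apart. The cells were grown in DMEM with fetal calf serum, and no treatment is given.

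The libraries held 33221323 to 39802365 reads on features. HPSE itself had 136, 172 and 146 normalized counts in SW480-45 and 270, 295 and 246 in SW480-NC, so that 56.1% of its RNA was left and the libraries of the lines did not overlap. Its log2 fold change of -0.83 did not pass the test (adjusted p = 0.0547 from limma). Over the other fits the adjusted p ranged from 0.00095 in DESeq2 to 0.188 in limma without SW480-45 replicate 1. The study judged the knockdown by protein on western blots, and these RNA values do not measure how much protein was left. Of 12 markers of colon epithelium, 9 were measured, and KRT8 and EPCAM, which encode a keratin and an adhesion molecule of epithelial cells, had the highest counts. EPCAM had a mean of 18657 normalized counts in SW480-NC. CDX2, a transcription factor of intestinal identity, was low at 34.0 and 28.8 normalized counts in SW480-NC and SW480-45, and GPA33, a surface antigen of intestinal epithelium, was at 4.24 and 1.31.

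Mucus is built from gel-forming mucins, very large glycoproteins that are folded in the endoplasmic reticulum with the help of AGR2, packed into granules and released together with small trefoil peptides. In the intestine, ATOH1 commits cells to the secretory lineage and SPDEF drives the maturation of goblet cells. MUC2, TFF3 and AGR2 are typical of intestinal goblet cells, whereas MUC5AC with TFF1, and MUC6 with TFF2, are typical of the gastric mucosa. REG4 is a small secreted protein with a C-type lectin fold, found in enteroendocrine and goblet cells and in many gastrointestinal tumors.

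REG4 was expressed at 1600, 1768 and 1668 normalized counts in SW480-45 and at 7062, 6982 and 8441 in SW480-NC. All 3 knockdown libraries were lower than every control library by a wide margin, and the libraries within a line were close to each other. The mean of 1679 ± 84.8 (SD, n = 3) in SW480-45 was 22.4% of the 7495 ± 821 (SD, n = 3) in SW480-NC. On the scale of log2(normalized count + 1), used for all fold changes here, this is a difference of -2.15 (standard error 0.09) for SW480-45 minus SW480-NC. The difference lay between -2.20 and -2.06 with each library left out in turn. In bulk RNA, fewer cells that express a gene and less RNA per cell cannot be told apart. By the size of the decrease, REG4 ranked 12 among 12662 tested Ensembl genes and MUC5AC ranked 25. Among all 21703 tested features they ranked 58 and 112. The ranks rest on the fold change by which both genes were selected. REG4 (ENSG00000134193) spans 119794018 to 119811660 of chromosome 1 (GRCh38, minus strand).

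The regions just upstream of the start were compared for the genes that RefSeq promoters covered, 5 of the 10 genes, as REG4 was low in SW480-45, AGR2 was alike in both lines and MUC2 was nearly silent. Shown are the 250 bases before the start on GRCh38.p14, read along the gene, from chr1:119811461-119811710 on the minus strand for REG4, chr7:16805000-16805249 on the minus strand for AGR2 and chr11:1074624-1074873 on the plus strand for MUC2. Capitals mark matches, on either strand, to a loose AP-1-like pattern (TGANTCA), a CDX motif (TTTATNG) and a FOXA motif (TGTTTNC). N is any base. The TATA box (TATAAA) and an E-box that ATOH1 can bind (CAGCTG) are marked as well. The AP-1-like matches of REG4 (TGATTCA) and MUC2 (TGAATCA) have T or A in the middle, where the AP-1 consensus has C or G. The REG4 and AGR2 starts in RefSeq lie inside the longer gene spans of GENCODE, so that at least part of each window is within the annotated gene.
REG4: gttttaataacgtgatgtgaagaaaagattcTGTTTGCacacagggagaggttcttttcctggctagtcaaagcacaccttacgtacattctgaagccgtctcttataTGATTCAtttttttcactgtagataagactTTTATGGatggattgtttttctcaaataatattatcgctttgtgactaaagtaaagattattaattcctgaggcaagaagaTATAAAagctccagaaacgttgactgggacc
AGR2: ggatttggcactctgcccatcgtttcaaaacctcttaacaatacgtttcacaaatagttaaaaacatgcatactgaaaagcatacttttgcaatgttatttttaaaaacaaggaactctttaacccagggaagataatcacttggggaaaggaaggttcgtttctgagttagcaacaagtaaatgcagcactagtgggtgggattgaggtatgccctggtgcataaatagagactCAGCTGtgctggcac
MUC2: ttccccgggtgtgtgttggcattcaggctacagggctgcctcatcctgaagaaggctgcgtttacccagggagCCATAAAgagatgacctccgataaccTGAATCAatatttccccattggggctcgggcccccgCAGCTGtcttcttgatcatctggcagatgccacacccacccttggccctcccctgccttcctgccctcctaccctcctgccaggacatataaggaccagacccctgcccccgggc

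The REG4 window held the AP-1-like letters 142 bases, the CDX letters 112 bases and the FOXA letters 219 bases before the start. The TATA box was 31 bases before it. Of all 35116 promoter windows of this length, 6.57% held the AP-1-like letters, 8.93% the CDX letters, 15.5% the FOXA letters and 10.7% the TATA box. The AGR2 window held the E-box alone, 15 bases before the start, and 14.0% of all windows held it. MUC2 had the AP-1-like letters, the CDX letters on the opposite strand and the E-box. SPDEF and ATOH1 held none of the 5 motifs in this window. No matches overlapped in the windows shown, and a match describes letters only.

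Of the gel-forming mucins MUC2, MUC5AC, MUC5B and MUC6, only MUC5AC, which forms the surface mucus of the stomach and airways, reached a mean of 10 normalized counts in either line. It had 110, 139 and 92.3 normalized counts in SW480-45 and 372, 377 and 379.6 in SW480-NC. The control libraries were nearly equal, and all knockdown libraries lay below them. The mean of 114 ± 23.6 (SD, n = 3) was 30.2% of that in SW480-NC, 376 ± 3.63 (SD, n = 3). On the log2 scale the difference was -1.74 (standard error 0.16). Without 1 library at a time the difference lay between -1.89 and -1.60. The values rest on 98 to 154 reads per SW480-45 library and 356 to 390 reads per SW480-NC library.

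MUC2, the main mucin of the colon, had 7, 0 and 0 reads in SW480-45 and 8, 0 and 6 in SW480-NC. MUC5B, a mucin of airways and salivary glands, had 18, 3 and 0 reads in SW480-45 and 0, 12 and 9 in SW480-NC, so both lines summed to 21 reads. A count of 0 allows up to 3 reads, so neither gene could be compared at this depth. MUC6, the mucin of gastric glands and the neighbor of MUC2, was at a mean of 8.75 normalized counts in SW480-45 and 8.62 in SW480-NC. Gel-forming mucins share repeats and similar domains, and how reads that match several genes were counted is not given in the sources used here, so these low values are uncertain. The opposite strand of MUC5B carries MUC5B-AS1, and reads of the pair cannot be told apart unless strand was used.

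MUC2 (ENSG00000198788), MUC5AC (ENSG00000215182) and MUC5B (ENSG00000117983) lie in this order on the plus strand of chromosome 11, between 1074875 and 1262172 in GRCh38. MUC5AC alone of the cluster was well above the limit of counting, from 1157953 to 1201138.

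The trefoil peptides are small proteins held by disulfide bonds that protect and help to repair the mucosa. TFF3, the goblet cell member, had 88.6, 93.0 and 46.2 normalized counts in SW480-45 and 40.8, 42.5 and 34.99 in SW480-NC. All knockdown libraries were above all control libraries, but replicate 3 of SW480-45 stood only just above them. The log2 difference of 0.87 (95% interval 0.18 to 1.56) did not pass the test over all features (adjusted p = 0.222 from limma). Without 1 library at a time the adjusted p from limma ranged from 0.0996 to 0.464.

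TFF1, the partner of MUC5AC in the stomach, had 16.9, 14.4 and 16.0 normalized counts in SW480-45 and 8.37, 17.4 and 42.4 in SW480-NC. The SW480-45 libraries lay inside the range of the control libraries, which was set by replicates 1 and 3 of SW480-NC. The log2 difference was -0.22 with a 95% interval from -1.51 to 1.07 (adjusted p = 0.876 from limma), and without SW480-NC replicate 3 it was 0.35. TFF2 had 3 reads in 1 SW480-45 library and 0 in the other 5. TFF3 (42311667 to 42315651), TFF2 (42346357 to 42351128) and TFF1 (42362282 to 42366594) lie side by side on chromosome 21 (GRCh38, minus strand).

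AGR2, the protein disulfide isomerase that mucins need for folding, had the smallest log2 difference of the 7 genes tested. Its normalized counts were 4508, 5517 and 5103 in SW480-45 and 5150, 4888 and 5328 in SW480-NC. The lines overlapped, with means of 5043 ± 507 (SD, n = 3) and 5122 ± 221 (SD, n = 3). The log2 difference was -0.03 with a 95% interval from -0.23 to 0.18 (adjusted p = 0.909 from limma), so that a change of the size seen for REG4 or MUC5AC lay outside the interval.

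SPDEF, the transcription factor of goblet cell maturation, had 565, 576 and 458 normalized counts in SW480-45 and 525, 369 and 344 in SW480-NC. SW480-NC replicate 1 was inside the range of the knockdown libraries and the other controls were below it. The log2 difference was 0.39 (95% interval -0.03 to 0.81, adjusted p = 0.340 from limma). ATOH1, the switch of the secretory lineage, had 135, 119 and 89.5 normalized counts in SW480-45 and 157, 105 and 136 in SW480-NC. Its libraries overlapped, and the log2 difference was -0.21 (95% interval -0.72 to 0.29, adjusted p = 0.669 from limma). It was -0.045 without SW480-45 replicate 3, -0.081 without SW480-NC replicate 1, -0.34 without SW480-45 replicate 1 and -0.37 without SW480-NC replicate 2. For both regulators the interval included 0 and did not reach the difference of REG4 or MUC5AC.

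**Figure D1:**
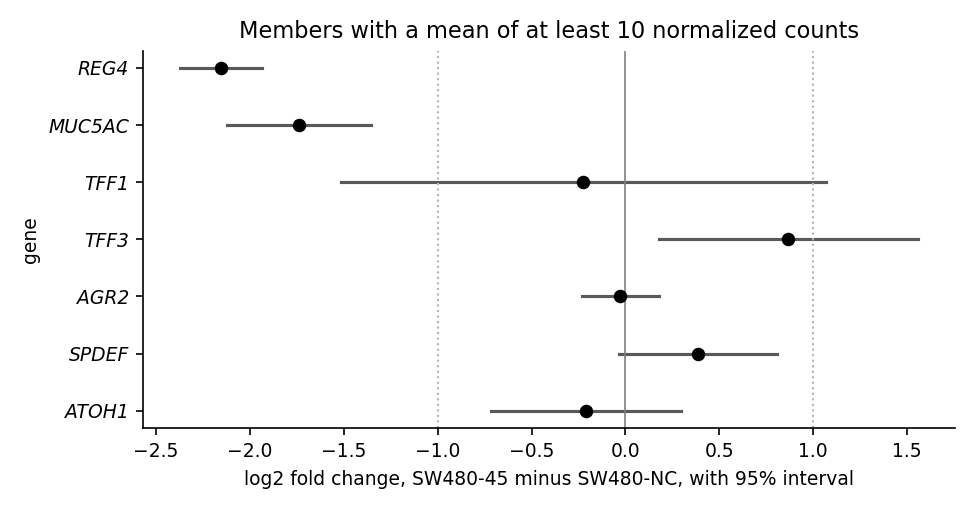
Log2 difference of SW480-45 minus SW480-NC for the 7 genes that were tested, with the 95% interval from limma as a line. Dotted lines mark a 2-fold change. REG4 at -2.15 and MUC5AC at -1.74 lie beyond the dotted line, and AGR2 lies at -0.03.

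Features were tested if their mean over the 6 libraries was 10 normalized counts or more. A feature was called if its adjusted p from limma was below 0.05 and the lines differed by 2-fold or more. Among 21703 tested features, 0.24% were called, 0.143% as lower and 0.0968% as higher in SW480-45. Of the 10 genes, 7 were tested, 2 were called as lower, REG4 and MUC5AC, and 0 as higher. The 2 had been chosen for this difference, so that nothing is read from this count. Of the other 8 genes, 5 were tested, 0 passed the adjusted threshold in limma or edgeR, nor in DESeq2, which gave no adjusted p for TFF1. In limma, 1 of them, TFF3, had an unadjusted p under 0.05, as 16.2% of all features did. The libraries of the lines did not overlap for 1 of these 5 genes, TFF3, and for 23.4% of all features. Among the tested genes TFF1 had the lowest mean, 19.3 normalized counts, and among the untested MUC5B had the highest, 7.14. The median log2 difference of the 5 genes was -0.03, against 0.00 over all features tested. With REG4 and MUC5AC it was -0.21, a value set in part by their selection. MUC5AC was no longer called without the intensity trend of limma.

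Within a library, the balance of REG4 and AGR2 does not depend on how libraries are scaled. The SW480-NC libraries had 1.37, 1.43 and 1.58 REG4 reads per AGR2 read, and the SW480-45 libraries had 0.355, 0.321 and 0.327. REG4 thus outnumbered AGR2 in reads in each control library and was the smaller of the pair in each knockdown library. REG4 took 53.0% to 57.3% of the reads of the 10 genes in SW480-NC and 21.5% to 22.7% in SW480-45. As REG4 was chosen for its difference in these same libraries, the ratio and the share restate that difference. The 9 genes other than REG4 were summed as RPM, which are reads scaled to a common library size. They had 162 to 174 RPM in SW480-NC and 156 to 179.8 RPM in SW480-45, ranges that overlapped. Most of this sum was AGR2. Of the reads of all 10 genes, REG4 included, AGR2 took 36.2% to 38.7% in SW480-NC and 63.9% to 68.3% in SW480-45. These shares depend on the level of REG4, and AGR2 itself was alike in both lines. MUC5AC, in the sum of the 9 genes, had 10.3 to 10.5 RPM in SW480-NC and 2.65 to 3.87 RPM in SW480-45. The balance between REG4 and MUC5AC, both of which were lower, was 18.5 to 22.2 REG4 reads per MUC5AC read in SW480-NC and 12.7 to 18.1 in SW480-45.

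**Figure D2:**
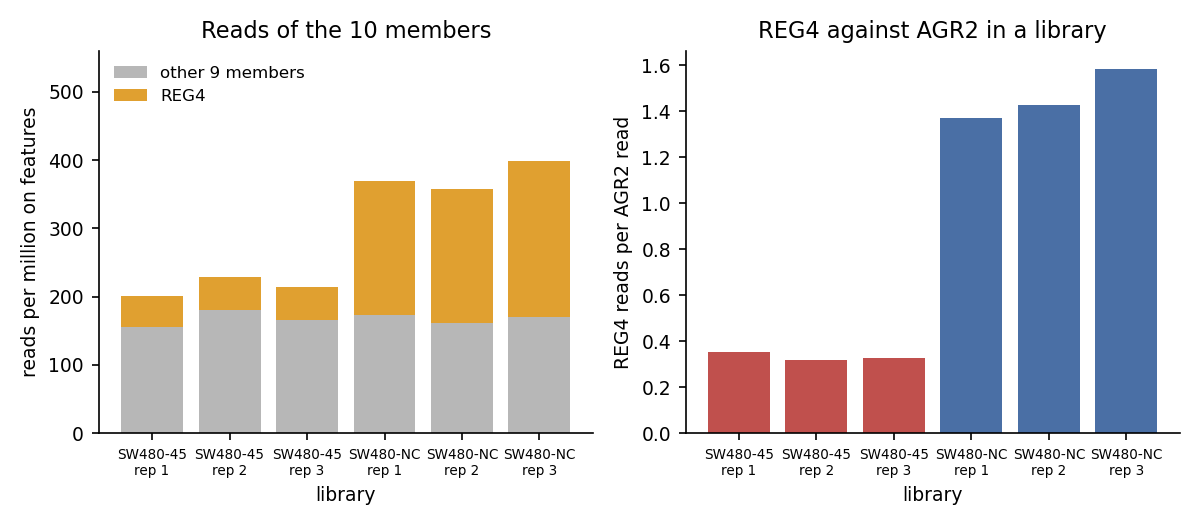
Left, RPM in each library, with REG4 in orange on top of the other 9 genes in gray. Right, REG4 reads per AGR2 read, with SW480-45 in red and SW480-NC in blue. The gray part, which is mostly AGR2, lies between 156 and 179.8 RPM in all libraries. The ratio is 1.37 or more in SW480-NC and at most 0.355 in SW480-45. REG4 was chosen for its difference in these same libraries, which the ratio restates.

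Levels of different genes were compared as normalized counts per kilobase of annotated exon. In SW480-NC, REG4 was highest at 2146 ± 235 (SD, n = 3), rank 434 of the 9811 ranked protein-coding genes. AGR2 followed at 1800 ± 77.8 (SD, n = 3) per kilobase, below every REG4 value, and SPDEF came next at 216 ± 51.4 (SD, n = 3). ATOH1 at 60.0, TFF1 at 41.2 and TFF3 at 33.8 per kilobase followed, and the ranges of ATOH1 and TFF1 overlapped, as did those of TFF1 and TFF3. MUC5AC, with its very long transcript, was at 21.6 per kilobase, below every TFF3 value, and MUC2, MUC5B and TFF2 were at the bottom below 1. The range of TFF1, 15.2 to 77.0 per kilobase, also included MUC5AC, so that the order of TFF1 and MUC5AC is not settled. In SW480-45, AGR2 was first at 1772 ± 178 (SD, n = 3) per kilobase and REG4 second at 481 ± 24.3 (SD, n = 3), rank 2572. SPDEF at 279 per kilobase was next, then TFF3 at 65.0 and ATOH1 at 51.8, whose ranges overlapped, TFF1 at 28.6 and MUC5AC at 6.52.

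The profile of REG4 over the 6 libraries was compared with that of 9721 genes by the root mean square difference of their log2 values, each taken from its own mean. The nearest 5 genes were MMP1, MUC5AC, KRT13, DHRS9 and MMP10, with differences of 0.21, 0.27, 0.35, 0.36 and 0.39 on the log2 scale. MMP1 and MMP10 are matrix metalloproteinases, KRT13 is a keratin of stratified epithelia and DHRS9 is a retinol dehydrogenase. MMP1 had 52.7, 86.7 and 79.1 normalized counts in SW480-45 and 295, 277 and 294.8 in SW480-NC. All 5 were lower in each SW480-45 library, which follows from the choice by likeness to REG4. Of the other secretory genes that were abundant enough for this comparison, ATOH1 was at rank 1956, AGR2 at 4179, SPDEF at 8942 and TFF3 at 9612.

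The genes around the 10 were described next, as position had played no role in choosing them. Of 24 nearest protein-coding genes with a row, at most 2 on each side, 17 were tested, 1 passed the adjusted threshold as higher and 0 as lower, against 0.332% and 0.47% of all features. At an unadjusted p under 0.05 there were 4 of the 17, against 16.2% of all features, and the median log2 difference was 0.04. The gene that passed was ABCG1, a cholesterol transporter 14.4 kb from TFF3, with 406, 434 and 390.0 normalized counts in SW480-45 and 225, 252 and 256 in SW480-NC. Every knockdown library was above every control library, at a log2 difference of 0.75 (standard error 0.11, adjusted p = 0.0397 from limma), but with any 1 library left out its adjusted p from limma was at least 0.0616. Next to REG4, PHGDH, an enzyme of serine synthesis, had a log2 difference of 0.63 (adjusted p = 0.0679 from limma) and NOTCH2, a receptor, one of -0.15 (adjusted p = 0.340 from limma). Around the mucin cluster, AP2A2, a subunit of the endocytic adaptor, was at 0.04 and BRSK2, a kinase, at 0.20. AGR3, the paralog 26.0 kb from AGR2, had 182, 176 and 249 normalized counts in SW480-45 and 316, 335 and 324 in SW480-NC, a log2 difference of -0.70 (adjusted p = 0.102 from limma).

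**Figure D3:**
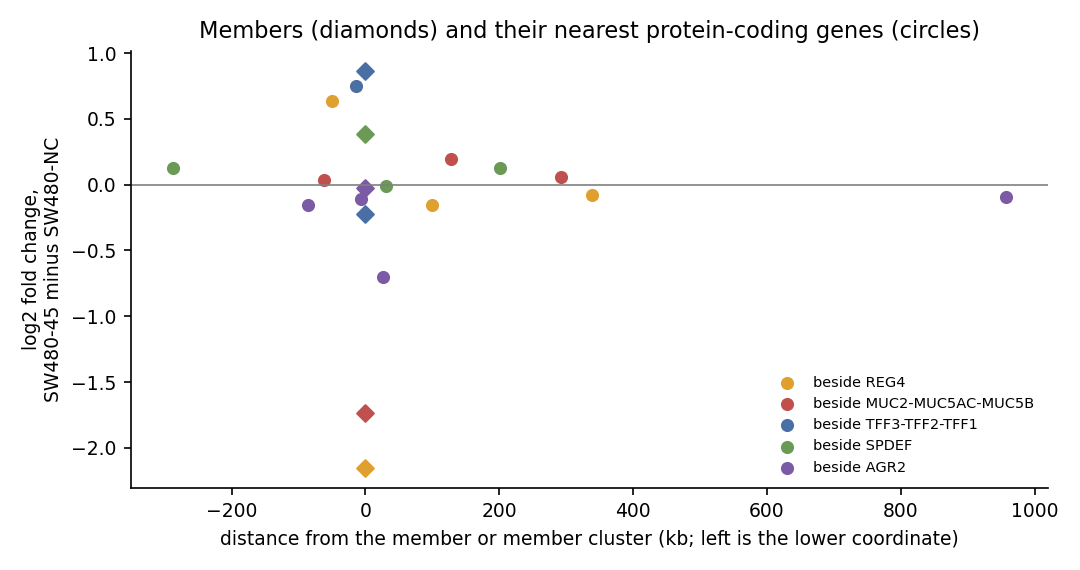
Log2 difference of SW480-45 minus SW480-NC against the distance in kb from each gene or gene cluster, with diamonds for the genes themselves and circles for the nearest tested protein-coding genes. ATOH1, whose neighbors lie far away, is not drawn. The circles lie between -0.70 and 0.75, while REG4 and MUC5AC lie at -2.15 and -1.74.

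Other genes of mucous and gastric-type epithelium, 30 in all, were taken from a list by role. Of these, 11 were tested, 3 fell and 1 rose at an adjusted p under 0.05, where 0.802% of all features passed in either direction. TCN1, a secreted vitamin B12 carrier of mucous cells, had 109, 101 and 75.4 normalized counts in SW480-45 and 197, 195 and 230.1 in SW480-NC. It fell by 1.13 on the log2 scale (standard error 0.18, adjusted p = 0.0426 from limma), but it was above the adjusted threshold in each fit with 1 library left out. VSIG1, an adhesion molecule of gastric epithelium, fell by 0.61 (standard error 0.06, adjusted p = 0.0129 from limma). Its normalized counts were 4716 ± 183 (SD, n = 3) in SW480-45 and 7174 ± 258 (SD, n = 3) in SW480-NC. ANXA10, an annexin of gastric epithelium, fell by 0.36 (adjusted p = 0.0497 from limma) and was above the threshold in each fit with 1 library left out. VSIG1 passed in 3 of these 6 fits.

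BCAS1 went the other way, with 1976, 2114 and 2061 normalized counts in SW480-45 and 1262, 1190 and 1213 in SW480-NC. It rose by 0.75 on the log2 scale (standard error 0.07, adjusted p = 0.010 from limma), and it passed in 5 of those 6 fits. FCGBP, a mucus protein that binds to MUC2, was at 67.5 ± 4.08 normalized counts (SD, n = 3) in SW480-45 and 85.4 ± 2.96 (SD, n = 3) in SW480-NC. The log2 difference was -0.34 (adjusted p = 0.340 from limma). SPINK4 and ITLN1, products of goblet cells, were under the minimum for testing in both lines. The median log2 difference of the 11 genes was -0.16. Of the list, 14 genes were not analysed here, among them CLCA1 and ZG16, nor were the 4 other REG family genes listed, REG1A, REG1B, REG3A and REG3G.

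Of 33 genes for folding, packing and release of mucins, 21 were tested, 1 passed as lower and 0 as higher, against 0.47% and 0.332% of all features, with a median log2 difference of -0.10. At an unadjusted p under 0.05 there were 9 of the 21, against 16.2% of all features. The gene that passed was HSPA5, the main chaperone of the endoplasmic reticulum, at -0.34 (adjusted p = 0.0343 from limma), with means of 44339 normalized counts in SW480-45 and 55973 in SW480-NC, and it passed in 1 of the 6 fits with a library left out. ERN2, the stress sensor of mucous cells, had a log2 difference of 0.47 (adjusted p = 0.124 from limma), and XBP1, its target, one of -0.39 (adjusted p = 0.303 from limma), which was -0.18 without SW480-NC replicate 2. RAB27B, a GTPase of secretory granules, was at -0.42 (adjusted p = 0.113 from limma).

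Of 34 regulators of the secretory lineage and of mucin genes, 19 were tested and 0 passed the adjusted threshold in limma, with a median log2 difference of -0.01. At an unadjusted p under 0.05 there were 8 of the 19, against 16.2% of all features. KLF4, a factor of goblet cell differentiation, had 524, 430 and 175 normalized counts in SW480-45 and 757, 766 and 627 in SW480-NC. The lines did not overlap, but the knockdown libraries were widely spread, and the log2 difference was -1.06 (adjusted p = 0.226 from limma, and 0.0488 from DESeq2). PDX1 at 0.67 (adjusted p = 0.151 from limma) and GLI1 at 0.48 (adjusted p = 0.133 from limma), both transcription factors, were higher in each SW480-45 library. FOXA2, a factor that can act on mucin genes, was at 213, 926 and 970.2 in SW480-NC and 873 to 1011 in SW480-45, so that its log2 difference of 0.70 (adjusted p = 0.552 from limma) came from SW480-NC replicate 1. Without that library it was -0.012.

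Notch signaling holds back ATOH1 in the intestine. Of 28 Notch pathway genes, 19 were tested, 1 passed as lower and 0 as higher, against 0.47% and 0.332% of all features. The median log2 difference was -0.06. At an unadjusted p under 0.05 there were 3 of the 19, near the 16.2% of all features. JAG1, a Notch ligand, fell by 0.47 on the log2 scale (standard error 0.07, adjusted p = 0.0418 from limma), with 1241 ± 22.6 normalized counts (SD, n = 3) in SW480-45 and 1718 ± 34.1 (SD, n = 3) in SW480-NC. With any 1 library left out its adjusted p from limma was 0.070 or more. HES1, the Notch target that represses ATOH1, had a mean of 920 normalized counts in SW480-45 and 997 in SW480-NC, a log2 difference of -0.11 (adjusted p = 0.595 from limma).

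**Figure D4:**
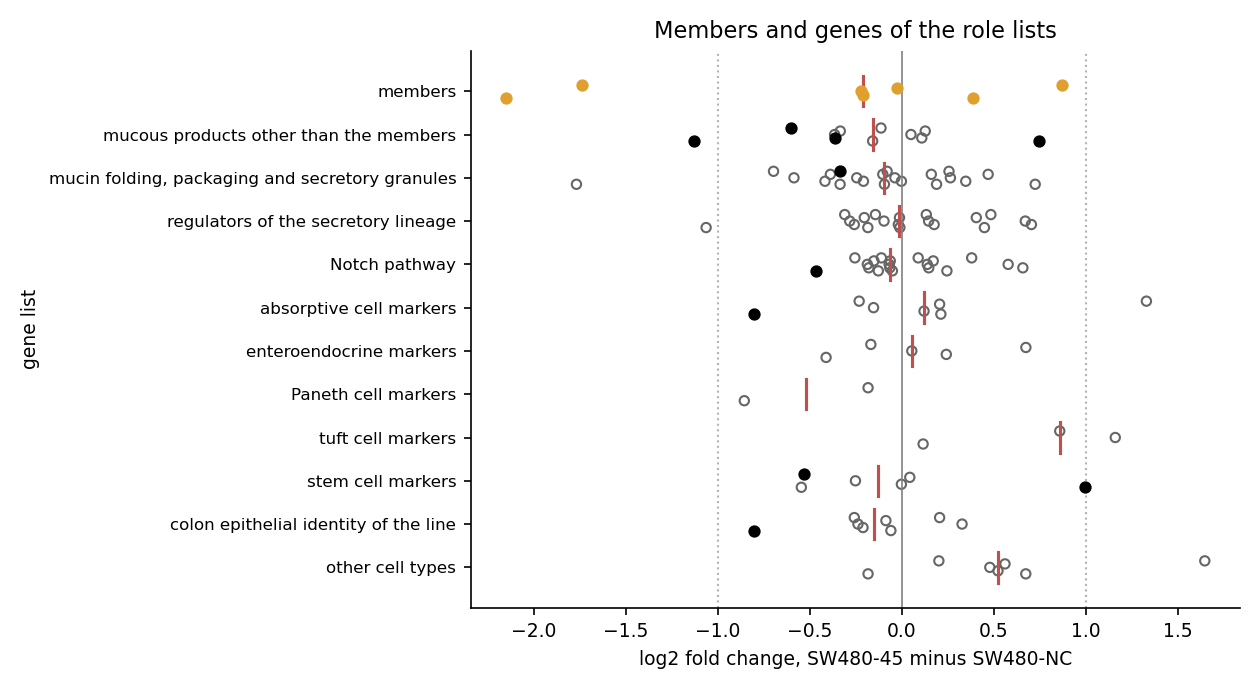
Log2 difference of SW480-45 minus SW480-NC for each tested gene of the role lists, 1 list per row. Orange points in the row named members are REG4 and the other secretory genes, with no test shown, filled black points are list genes with an adjusted p under 0.05 from limma, open points are the rest, red bars are medians and dotted lines mark a 2-fold change. TCN1 at -1.13 is the only black point beyond a dotted line.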

How the data were processed

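RNA of 3 SW480-45 and 3 SW480-NC libraries was sequenced with a kit for Illumina. The authors deposited a normalized signal for each feature, gene counts divided by 1 size factor per library. GRCh38, HISAT2, DESeq2 and bcl2fastq are named in the submitters' processing notes with no role, and the study's methods name Cuffdiff. The counting tool and annotation are not given in the sources used here. In each library 100% of the values were whole multiples of 1 step (tolerance 0.01 reads), which gave the reads.

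After adding 1 to the normalized counts and taking log2, limma 3.58.1 (R 4.3.3) was run with its intensity trend on the 21703 features whose mean was 10 or more, and p-values were adjusted over all of them after Benjamini and Hochberg. As alternatives, edgeR 4.0.16 and DESeq2 1.42.0 were run on the recovered reads, along with other pseudocounts, filters, normalizations and left-out libraries. The steps were tested on simulated data. Symbols came from a table of Ensembl identifiers, and positions and exon lengths from GENCODE 29. Features named by a transcript assembler have no symbol and may hold reads of genes named here.

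The genes and lists were chosen with earlier results of these data known. The text names the 10 genes, HPSE, list genes that passed, up to 4 others per list with the largest change and a mean of at least 50, the 2 nearest genes on each side and the 5 genes most like REG4. EPCAM, CDX2, GPA33, HES1 and list genes under the minimum were named outside this rule, after their values were seen. Intervals and limits of a 0 cover counting or replicate error only.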

Additional observations from a re-analysis of the deposited data

How the results depend on the processing

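The difference of REG4 and of MUC5AC kept its sign in all alternatives run. Of the 10 genes, 2 were called, and without the intensity trend or with the replicate block this was 1, as MUC5AC no longer passed. It was 2 with each library left out. REG4 and MUC5AC had been chosen for their difference in these same libraries, so nothing is read from these counts or signs. Over all features, 52 were called, against 131 in DESeq2, 33 with Ensembl features only, 11 without the intensity trend, 12 with the replicate block and 28 to 43 without 1 library, of which 31 came from leaving out SW480-NC replicate 1 and 28 from leaving out replicate 2 of that line. Of the 104 list genes tested, 9 passed the adjusted threshold, where 0.802% of all features did. This number was 0 without the intensity trend, 0 with the replicate block and 1 to 4 without 1 library. With the 2-fold minimum 1 was called, TCN1, against 4 in DESeq2, 2 with Ensembl features only, 2 with all features that had any value, 0 without the intensity trend and 0 with the replicate block, and 0 to 1 without 1 library, where, as in edgeR, the 1 was a gene that was higher and TCN1 did not pass. Over all features, same-numbered libraries had no clear shared deviation, with correlations between -0.020 and 0.0074. ZNRF3 was high in replicate 1 of both lines, at 4281 normalized counts in SW480-45 and 4246 in SW480-NC. Whether libraries of the same number shared a batch was not tested. AGR3, ERN2, RAB27B, KLF4, SH2D6 and PHGDH did not pass in the main fit but did in at least 1 other fit with all 6 libraries. So did other list genes that are not named. AGR2 turned to 0.032 with quantile normalization. With 1 library left out, signs turned for TFF1 (-0.75 to 0.35), AGR2 (-0.094 to 0.052) and the list genes KLK1 (-0.028 to 0.30), FOXA2 (-0.012 to 1.08), CDHR5 (-0.22 to 0.33), PTGS1 (-0.12 to 0.25), ZNRF3 (-0.43 to 0.52) and LRIG1 (-0.125 to 0.12), with 0 of them past the threshold. The causes were not tested. Depth limits MUC2, MUC5B and TFF2, at 21 or fewer reads per line.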

Other observations

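Markers of other intestinal lineages were counted in the same way, against 16.2% of all features at an unadjusted p under 0.05. At an adjusted p under 0.05, 0.47% of all features passed as lower and 0.332% as higher. Of 20 absorptive cell markers, 7 were tested, 1 passed as lower and 0 as higher, with 4 at an unadjusted p under 0.05 and a median log2 difference of 0.12. KRT20, a keratin of differentiated colon cells, had 4452, 4555 and 4614 normalized counts in SW480-45 and 7349, 7919 and 8587 in SW480-NC, and it fell by 0.81 on the log2 scale (adjusted p = 0.00719 from limma). The adjusted p from limma was 0.0127 to 0.0451 with 1 library left out and 0.0859 without the intensity trend. KRT20 is also 1 of the 12 colon epithelial markers, of which 8 were tested and no other passed.

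Of 12 stem cell markers, 6 were tested, 1 passed as lower and 1 as higher, and 3 had an unadjusted p under 0.05. Over all features these shares were 0.47%, 0.332% and 16.2%. LGR5, a receptor of intestinal stem cells, fell by 0.53 (adjusted p = 0.0426 from limma), with 1226 ± 53.1 normalized counts (SD, n = 3) in SW480-45 and 1774 ± 101 (SD, n = 3) in SW480-NC. EPHB2, a receptor of the crypt base, rose by 0.99 (adjusted p = 0.0191 from limma), with 527 ± 44.7 normalized counts (SD, n = 3) in SW480-45 and 264 ± 23.9 (SD, n = 3) in SW480-NC. With 1 library left out, LGR5 passed in 0 of 6 fits and EPHB2 in 1. Of 15 enteroendocrine markers 5 were tested, of 6 Paneth cell markers 2 and of 8 tuft cell markers 3, and 0 passed the adjusted threshold in limma, with 0, 2 and 1 of them at an unadjusted p under 0.05. SH2D6, a tuft cell gene, had 101, 85.8 and 123 normalized counts in SW480-45 and 42.9, 43.5 and 49.8 in SW480-NC, a log2 difference of 1.16 (adjusted p = 0.0538 from limma).

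Of 17 markers of fibroblasts, immune, endothelial and muscle cells, 7 were tested and 0 passed in limma. At an unadjusted p under 0.05 there were 2, against 16.2% of all features. Their summed level, which is mostly that of LYZ, was 60166 to 62790 normalized counts in SW480-45 and 67651 to 72395 in SW480-NC. LYZ was at -0.18 on the log2 scale and the other 6 were higher in SW480-45, with a median of 0.52 over the 7. The fibroblast marker COL1A1 had a mean of 309 normalized counts in SW480-45 and 218 in SW480-NC, and PDGFRB had 33.8 and 24.3. The endothelial markers VWF and PECAM1 had 16.5 and 18.9 in SW480-45 and 8.44 and 10.2 in SW480-NC. COL1A2 and CDH5 had 0 reads in all SW480-45 libraries and at most 0.97 normalized counts on average in SW480-NC. Their part in the results was not tested.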
